A study of Mus musculus with 8 samples.

Results

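A set of 10 genes known for their roles in germ cells was followed in mouse embryonic stem cells (ESCs) on expression arrays: Dppa3, Dazl, Ddx4, Stra8, Sycp1, Sycp3, Mael, Tdrd1, Tex101 and Rhox5. Every non-control probe carrying one of these names in the scanner files was taken, which gave 11 probes of 10 genes among 39429 probes with 30175 names. Sycp3 had 2 probes and every other gene had 1, each printed as 1 spot. The cells were E14 ESCs, a feeder-free line, infected with lentiviruses carrying short hairpin RNAs and collected 72 h later. The 4 groups, with 2 biological replicates each (A and B), were control KD (hairpin RNA against GFP, a protein foreign to these cells), Tip60 KD (against Kat5, the gene of the Tip60 acetyltransferase), Hdac6 KD (against the deacetylase Hdac6) and double KD (against both). KD stands for knockdown. All groups, control KD included, had therefore been infected with virus, and all came from the same line.

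Germ cell genes are active in the cells that give rise to eggs and sperm and are kept silent in most other tissues, largely by DNA methylation of CpG-rich promoters and by repressor complexes that sit on E-box and E2F motifs near their start sites. ESCs are an exception and transcribe a number of them without being germ cells. The members here span the germline programme. Dppa3 marks early germ cells and the egg, Dazl and Ddx4 are RNA regulators of committed germ cells, Stra8, Sycp1 and Sycp3 serve meiosis, Mael and Tdrd1 act in transposon silencing by piRNAs, Tex101 is a surface protein of germ cells, and Rhox5 is an X-linked homeobox gene of the reproductive tract.

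For 9 of the 10 genes RefSeq (GRCm38.p6) gave the bases around a start site, and the 250 bases upstream were searched because several members moved together. The E-box CACGTG, which reads the same on both strands, was present upstream of 5 of these genes (Ddx4, Mael, Sycp1, Sycp3 and, at 2 of its 3 starts, Tdrd1), against 6.02% of all 32851 windows of the same length. The E2F-type core GCGGGA, or TCCCGC on the other strand, was found upstream of 3 (Ddx4, Mael and Sycp3), against 16.9% of all windows, and the motifs did not overlap. The counts take a gene with a match at any start, whereas the percentages are per window. The upstream stretches of 6 genes are shown, 3 with an E-box and 3 without, since these genes carry the contrasts described below. They are written from the far end to the last base before the start, with CACGTG in capitals.
Mael, chr1:166238745-166238994 (minus strand): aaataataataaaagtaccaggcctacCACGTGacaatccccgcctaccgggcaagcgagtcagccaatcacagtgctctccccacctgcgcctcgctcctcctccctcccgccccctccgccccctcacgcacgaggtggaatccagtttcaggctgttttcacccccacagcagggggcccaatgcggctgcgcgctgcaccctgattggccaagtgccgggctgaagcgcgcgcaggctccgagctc
Sycp3, chr10:88459337-88459586 (plus strand): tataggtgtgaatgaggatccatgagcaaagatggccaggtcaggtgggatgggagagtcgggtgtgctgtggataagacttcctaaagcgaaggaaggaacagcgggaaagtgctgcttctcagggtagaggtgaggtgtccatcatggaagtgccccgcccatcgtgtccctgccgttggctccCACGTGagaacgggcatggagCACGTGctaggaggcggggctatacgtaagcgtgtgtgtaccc
Ddx4, chr13:112652311-112652560 (minus strand): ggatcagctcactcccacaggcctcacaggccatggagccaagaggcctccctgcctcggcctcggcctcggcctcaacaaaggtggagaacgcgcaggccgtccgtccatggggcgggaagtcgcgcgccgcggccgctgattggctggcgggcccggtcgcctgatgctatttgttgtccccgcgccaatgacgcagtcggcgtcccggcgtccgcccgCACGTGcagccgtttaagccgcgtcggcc
Stra8, chr6:34920698-34920947 (plus strand): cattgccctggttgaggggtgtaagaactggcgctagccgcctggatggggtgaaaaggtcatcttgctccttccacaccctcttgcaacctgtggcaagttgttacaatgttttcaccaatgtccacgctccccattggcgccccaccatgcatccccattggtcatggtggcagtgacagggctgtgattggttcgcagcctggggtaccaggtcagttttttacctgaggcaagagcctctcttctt
Dazl, chr17:50293621-50293870 (minus strand): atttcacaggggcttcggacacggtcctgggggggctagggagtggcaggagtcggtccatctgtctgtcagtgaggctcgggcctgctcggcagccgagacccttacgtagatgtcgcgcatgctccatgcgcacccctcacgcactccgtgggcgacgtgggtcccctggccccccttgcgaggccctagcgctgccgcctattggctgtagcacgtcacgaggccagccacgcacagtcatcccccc
Rhox5, chrX:37754358-37754607 (plus strand): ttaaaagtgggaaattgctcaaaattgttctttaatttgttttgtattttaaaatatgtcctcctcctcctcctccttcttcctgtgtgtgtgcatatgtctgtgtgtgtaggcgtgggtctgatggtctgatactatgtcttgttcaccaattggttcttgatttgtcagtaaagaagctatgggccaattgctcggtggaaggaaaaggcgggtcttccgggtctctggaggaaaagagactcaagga
The E-box of Mael began 223 bases before the start, that of Ddx4 29 bases before it, and Sycp3 held 2, beginning 64 and 43 bases before it. Ddx4 had 31 CG dinucleotides in its 250 bases and Dazl 20, whereas Stra8 had 5 and Rhox5 4. The median over all windows was 6. A match of letters describes the window and is no evidence that a factor binds there. Of the genes called lower in every knockdown, Mael and Sycp3 held both motifs, Stra8 and Rhox5 held neither, and Dppa3 had no window. Ddx4 and Sycp1 held an E-box and were called lower in Hdac6 KD only. A link between motifs and changes was not tested.

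Signal was read as log2 of the processed intensity over the array's 75th percentile, so that 0 lies at that percentile. Values below the faintest level that all arrays could resolve were set to a floor of -2.71. Of the 11 probes, 9 probes of 8 genes were well above background on all 8 arrays, and 8 of them lay above the floor on all 8. The probes of Tdrd1 and Tex101 lay under the floor on every array. The knockdowns could be read in their own targets. The 2 Kat5 probes fell to 34.5% and 39.2% of control KD in Tip60 KD and to 33.7% and 40.4% in double KD. The Hdac6 probes fell to 17.8% and 18.9% in Hdac6 KD and to 27.3% and 28.8% in double KD, and they stood at 73.9% and 78.0% in Tip60 KD. Signal over background varied, with 21896 to 40609 of 43020 spots well above background. The control KD array was lowest on both slides, with 31179 on array A and 21896 on array B. Its median background was also the highest on each slide, 61.0 beside 37.25 to 39.4 and 114.32 beside 41.38 to 89.01. This difference goes with the reference group, and its part in the changes was not tested. Each group had the same position on both slides, so position and group cannot be told apart.

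All 3 knockdowns lowered most of the germ cell genes that could be read. In Tip60 KD, 6 of the 9 tested probes fell and 1 rose. In Hdac6 KD all 9 fell (6 without control KD array A or Hdac6 KD array B), and in double KD 6 fell and none rose. Rhox5, Dppa3, Stra8, Mael and both probes of Sycp3 were the probes called lower in every knockdown (limma, adjusted p under 0.1). Among all 22594 probes tested, 40.6% were called in Tip60 KD (20.8% higher and 19.8% lower), 30.0% in Hdac6 KD (14.9% higher and 15.1% lower) and 33.8% in double KD (16.8% higher and 17.0% lower). The median log2 change of the 9 probes was -1.36, -0.78 and -1.13 in Tip60, Hdac6 and double KD, while the median over all tested probes was 0.07, 0.04 and 0.06. In RNA from whole cultures, fewer expressing cells and less RNA per cell cannot be told apart. Dazl was the probe that moved in opposite directions in the single knockdowns. With the replicate block, which pairs arrays of the same letter, 8 probes were called in Tip60 KD and 8 in double KD, the additions being Ddx4 (lower in both) and Dazl (higher in double KD).

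**Figure D1:**
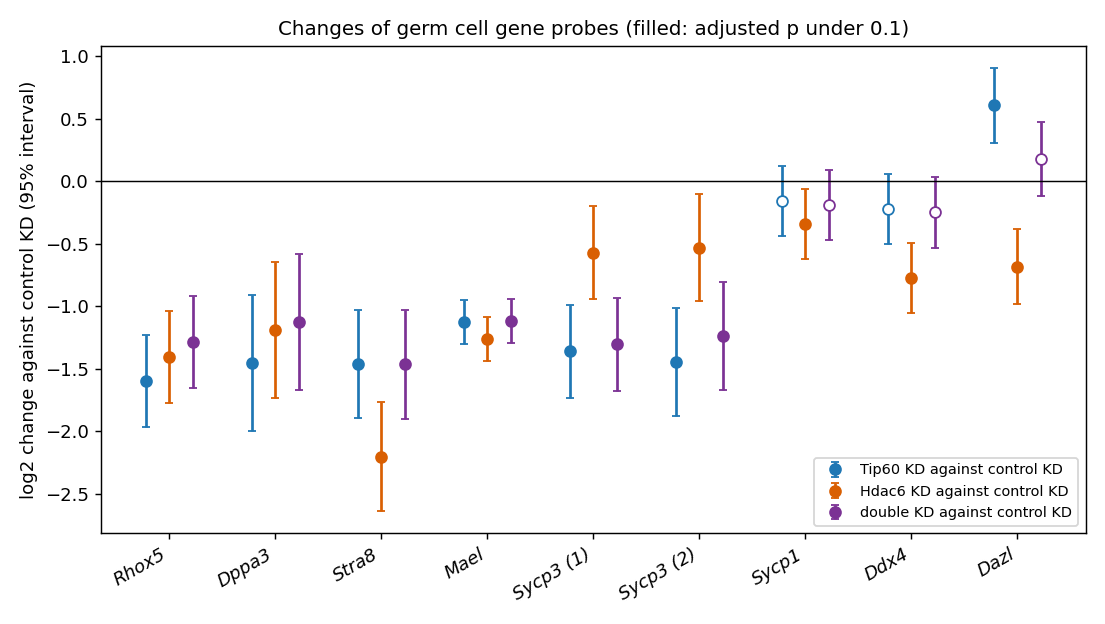
Log2 change against control KD (vertical axis) of the 9 tested probes in Tip60, Hdac6 and double KD, with 95% intervals from limma over 2 arrays per group. Filled points have an adjusted p under 0.1. Rhox5, Dppa3, Stra8, Mael and Sycp3, whose 2 probes are numbered, lie below 0 in all 3 knockdowns, and Dazl lies at 0.61 in Tip60 KD and -0.69 in Hdac6 KD.

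**Figure D2:**
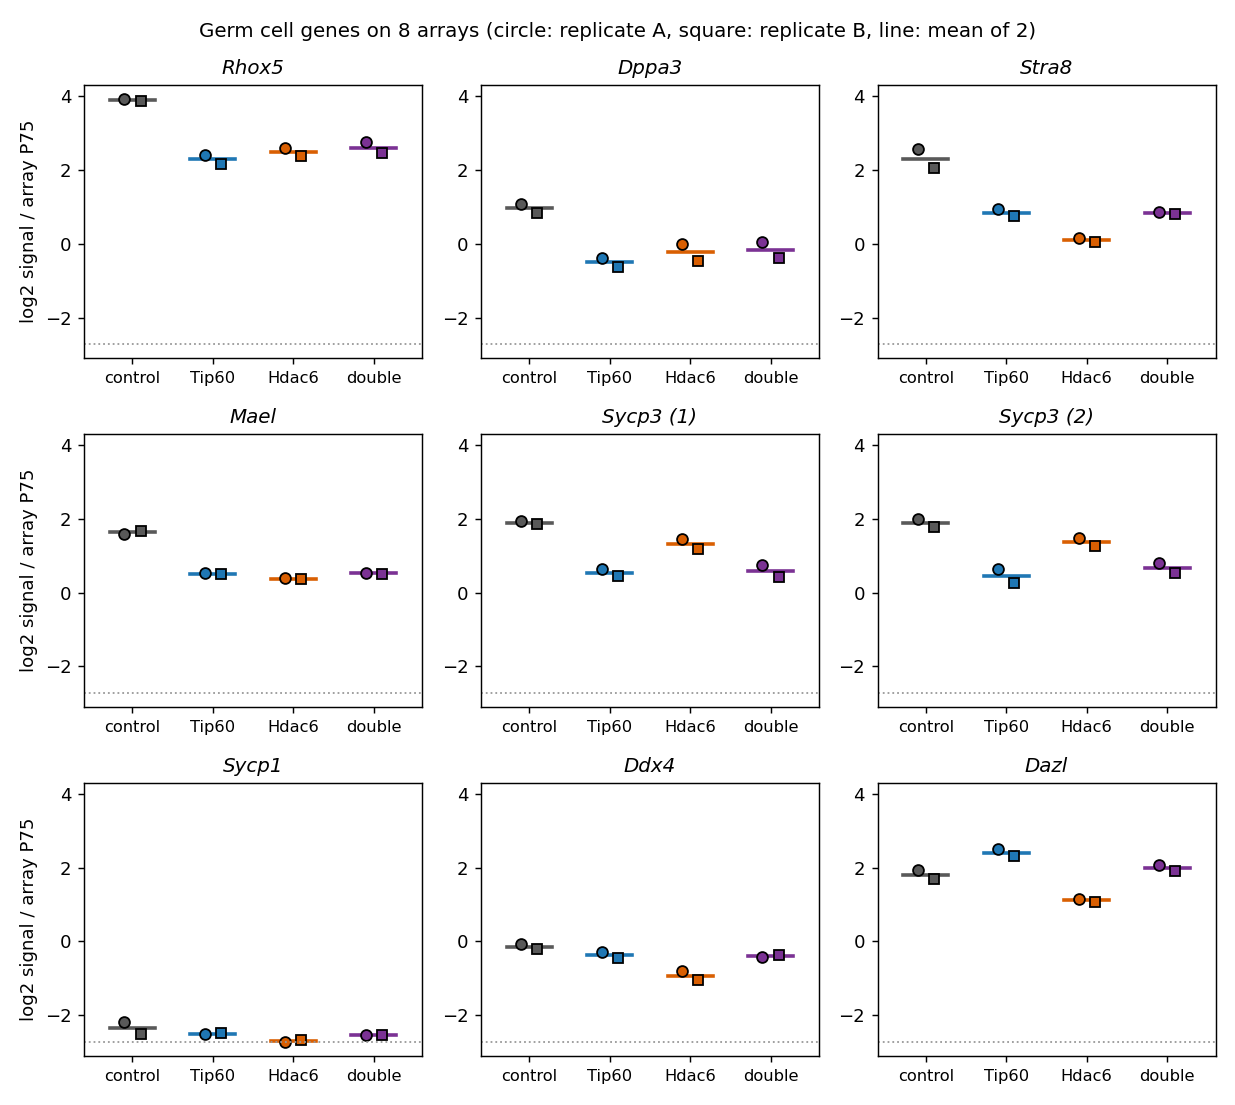
Log2 signal over the array's 75th percentile (vertical axis) of each tested probe on the 8 arrays, by group, with circles for replicate A, squares for replicate B, lines for group means and the dotted line at the floor of -2.71. The control KD arrays lie above all knockdown arrays for Rhox5, Dppa3, Stra8, Mael, Sycp3 and Ddx4, and Sycp1 lies next to the floor throughout.

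Dppa3 (Stella), which protects the egg's genome from loss of DNA methylation after fertilisation and marks the first germ cells, was measured at chr6:122580207-122580266 on the plus strand (build mm9, as are all probe positions here). Its log2 signal was 1.08 and 0.84 on the control arrays A and B, -0.37 and -0.62 after Tip60 knockdown, 0.00 and -0.47 after Hdac6 knockdown and 0.05 and -0.38 after both. Both control arrays were above all 6 knockdown arrays, and the knockdown groups overlapped one another. The log2 changes were -1.45, -1.19 and -1.13 (SE 0.22 for each), or 36.5%, 43.8% and 45.8% of control KD, with adjusted p = 0.00514, 0.0165 and 0.0167. The signals of the 3 knockdowns did not differ by a called amount. The 95% interval of Tip60 KD against Hdac6 KD ran from -0.81 to 0.28, although the replicate block called that difference of -0.26 (adjusted p = 0.0547).

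Dazl encodes an RNA-binding protein that licenses germ cells for meiosis and was measured at chr17:50418923-50418982 on the minus strand. Its log2 signal was 1.92 and 1.68 in control KD, 2.49 and 2.32 after Tip60 knockdown, 1.16 and 1.07 after Hdac6 knockdown and 2.06 and 1.90 after both. The Tip60 KD arrays were the highest of all 8, the Hdac6 KD arrays the lowest, and the control and double KD arrays overlapped. Dazl thus rose to 152.2% of control KD in Tip60 KD (log2 change 0.61, SE 0.12, adjusted p = 0.0129) and fell to 62.2% in Hdac6 KD (-0.69, SE 0.12, adjusted p = 0.0143). In double KD the change was 0.18 (95% interval -0.12 to 0.47, adjusted p = 0.363), and the replicate block called it higher (adjusted p = 0.0557). In order of signal the groups ran Tip60 KD, double KD, control KD and Hdac6 KD, and the step from control KD to Hdac6 KD was the only one between neighbours that was called. The step from Tip60 KD to double KD (log2 difference -0.43, adjusted p = 0.146) passed with quantile normalisation (adjusted p = 0.0993) and with the replicate block (0.0133). The change had the same sign on both slides in each knockdown.

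Ddx4 (Vasa), an RNA helicase found in germ cells across animals, was measured at chr13:113388616-113388675 on the minus strand. Its log2 signal was -0.08 and -0.21 in control KD, -0.29 and -0.45 after Tip60 knockdown, -0.80 and -1.04 after Hdac6 knockdown and -0.42 and -0.38 after both. The groups of control KD and Hdac6 KD stood at the ends without overlap, and Tip60 KD and double KD overlapped between them. Ddx4 fell to 58.4% of control KD in Hdac6 KD (log2 change -0.78, SE 0.11, adjusted p = 0.00859). The changes of -0.22 in Tip60 KD and -0.25 in double KD (adjusted p = 0.203 and 0.174) did not pass. Both passed with the replicate block (adjusted p = 0.0622 and 0.0484), with normexp background correction (0.0661 and 0.0428) and with the same background taken from every array (0.0735 and 0.0471).

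Stra8, the retinoic acid target that opens meiosis, showed the largest fall of the 9 probes. It was measured at chr6:34889237-34889296 on the plus strand, with log2 signal 2.57 and 2.05 in control KD, 0.94 and 0.76 after Tip60 knockdown, 0.16 and 0.05 after Hdac6 knockdown and 0.87 and 0.81 after both. Both control arrays lay far above the rest, the Hdac6 KD arrays lay lowest, and Tip60 KD and double KD overlapped. Stra8 fell to 21.7% of control KD in Hdac6 KD (log2 change -2.20, adjusted p = 0.00205). It stood at 36.3% in Tip60 KD (-1.46, adjusted p = 0.00252) and at 36.2% with both targets depleted (-1.47, adjusted p = 0.00406), with an SE of 0.18 in each. The control arrays differed from each other by more than those of any other group did for this gene, and the fall was nevertheless present within both slides.

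Sycp3 encodes a protein of the axes along which meiotic chromosomes are organised, and it was read by a probe listed at chr10:87932348-87935438, a span wider than the probe itself, and by a second at chr10:87935675-87935734, both on the plus strand. The first gave log2 signals of 1.94 and 1.86 in control KD, 0.63 and 0.44 after Tip60 knockdown, 1.46 and 1.19 after Hdac6 knockdown and 0.75 and 0.43 after both. The second gave 2.00 and 1.79, 0.64 and 0.26, 1.47 and 1.26, and 0.79 and 0.52 in the same order. Both probes put the control arrays highest, the Hdac6 KD arrays next, and the overlapping Tip60 KD and double KD arrays lowest. The first fell to 38.9% of control KD in Tip60 KD (log2 change -1.36, SE 0.15, adjusted p = 0.00202) and to 40.5% in double KD (-1.31, SE 0.15, adjusted p = 0.00375), and the second to 36.7% (adjusted p = 0.00255) and 42.4% (adjusted p = 0.00627). In Hdac6 KD the falls were smaller, to 67.3% (log2 change -0.57, adjusted p = 0.0461) and 69.1% (-0.53, adjusted p = 0.0839). These calls for Sycp3 in Hdac6 KD were fragile. The first probe lost its call without control KD array A, control KD array B or Hdac6 KD array B (adjusted p = 0.175, 0.134 and 0.207), and the second without those arrays (0.300, 0.145 and 0.316), without Hdac6 KD array A (0.144) or without either double KD array (0.102).

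Sycp1, which forms the transverse filaments that bridge paired chromosomes, was close to the limit of measurement at chr3:102622573-102622632 on the minus strand. Its log2 signal was -2.19 and -2.50 in control KD, -2.51 and -2.49 after Tip60 knockdown, -2.71 and -2.66 after Hdac6 knockdown and -2.53 and -2.53 after both. Array A of Hdac6 KD was at the floor, so the order of that value is not known. The log2 change in Hdac6 KD was -0.34 (SE 0.11, adjusted p = 0.0877), and those of -0.16 in Tip60 KD and -0.19 in double KD (adjusted p = 0.369 and 0.303) did not pass. The Hdac6 KD call of Sycp1 was lost under 15 of 18 other settings, including the omission of any single array other than control KD array B (adjusted p 0.132 to 0.251). Without control KD array B, Sycp1 was called lower in Tip60 KD and double KD as well (adjusted p = 0.0618 and 0.0647).

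Mael (Maelstrom), a piRNA pathway protein that restrains transposons in the male germline, gave the tightest measurement. It was read at chr1:168131583-168131642 on the minus strand, with log2 signal 1.60 and 1.68 in control KD, 0.53 and 0.50 after Tip60 knockdown, 0.38 and 0.37 after Hdac6 knockdown and 0.53 and 0.51 after both. The control arrays were apart from all others, and the knockdown arrays lay within a narrow band with Hdac6 KD at its lower end. Mael fell to 45.9% of control KD in Tip60 KD (log2 change -1.12, adjusted p = 0.000619), to 41.6% in Hdac6 KD (-1.26, adjusted p = 0.00151) and to 46.0% where both were depleted (-1.12, adjusted p = 0.00115), each with an SE of 0.07. Tip60 KD and Hdac6 KD differed by 0.14 (95% interval -0.04 to 0.31, adjusted p = 0.270), and double KD and Tip60 KD by 0.00 (interval -0.17 to 0.18). The difference between Tip60 KD and Hdac6 KD passed only without the filter on dim probes (adjusted p = 0.0970).

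Tdrd1, a Tudor domain scaffold of the piRNA machinery, is listed at chr19:56940470-56940951 on the plus strand. Its background-subtracted intensity was 33.2 and 30.1 in control KD, 34.5 and 17.5 after Tip60 knockdown, 36.8 and 0.125 after Hdac6 knockdown and 32.6 and 18.0 after both. The probe was well above background on 4 of 8 arrays and on neither control array. All 8 values lay under the floor, so the gene was not tested. Tex101, a surface glycoprotein of germ cells that sperm need to pass into the oviduct, was read at chr7:25453040-25453099 on the minus strand. Its intensity was 134.7 and 77.7 in control KD, 62.0 and 17.0 after Tip60 knockdown, 59.3 and 6.43 after Hdac6 knockdown and 64.8 and 69.1 after both. The control arrays held the highest values, but all 8 values of Tex101 were under the common floor and have no order there. With a floor 4 times lower its log2 changes were -0.99, -1.01 and -0.54 in Tip60, Hdac6 and double KD (adjusted p = 0.0272, 0.0431 and 0.145). With dim values left missing, none passed (adjusted p = 0.121, 0.153 and 0.193).

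Rhox5 (Pem), a homeobox gene of the X-linked Rhox cluster that is expressed in testis, epididymis and ESCs, fell in every knockdown. Its probe has no position in the files. The log2 signal was 3.93 and 3.86 in control KD, 2.41 and 2.17 after Tip60 knockdown, 2.60 and 2.37 after Hdac6 knockdown and 2.76 and 2.45 after both. The control arrays lay apart. Hdac6 KD overlapped the other knockdown groups, and the Tip60 KD arrays were below the double KD arrays. Rhox5 fell to 33.0% of control KD in Tip60 KD (log2 change -1.60, adjusted p = 0.00130), to 37.7% in Hdac6 KD (-1.41, adjusted p = 0.00376) and to 40.9% where both were depleted (-1.29, adjusted p = 0.00375), each with an SE of 0.15. The calls of Rhox5, Dppa3, Stra8, Mael and of Sycp3 in Tip60 KD and double KD, and those of Dazl in the single knockdowns and Ddx4 in Hdac6 KD, held under all the settings tried, the omission of each array included.

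Comparing the knockdowns with each other asked whether loss of Tip60 and loss of Hdac6 act on the same genes to the same extent. Between Tip60 KD and Hdac6 KD 5 of the 9 probes differed, while 23.9% of all tested probes did (12.5% higher and 11.4% lower in Tip60 KD). Dazl, Ddx4 and Stra8 were higher in Tip60 KD, and both Sycp3 probes were lower. Dazl stood 2.45-fold higher in Tip60 KD than in Hdac6 KD (log2 difference 1.29, SE 0.12, adjusted p = 0.00345), with the Tip60 KD arrays above the Hdac6 KD arrays by more than the spread of either, and this call held under every setting. The log2 difference was 0.55 for Ddx4 (adjusted p = 0.0265), 0.74 for Stra8 (adjusted p = 0.0398), and -0.79 and -0.91 for Sycp3 (adjusted p = 0.0212 and 0.0210). Omission of an array ended some of these calls. Ddx4 lost its call without Tip60 KD array A or Hdac6 KD array B (adjusted p = 0.120 for each), Stra8 without any 1 of the 4 arrays compared (0.111 to 0.173), the first Sycp3 probe without Tip60 KD array B or Hdac6 KD array A (0.111 for each), and the second without Hdac6 KD array A (0.116).

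No germ cell gene separated double KD from Tip60 KD in the unpaired fit. Of the 9 probes 0 were called by limma, 1 (Dazl, log2 difference -0.43) had an unadjusted p under 0.05, and 4.73% of all tested probes were called. The differences of the other 8 probes lay between -0.03 and 0.33. The interval for Stra8 ran from -0.44 to 0.43 and that for the first Sycp3 probe from -0.32 to 0.43, so that shifts within those ranges remain possible. Quantile normalisation called 1 probe, and the replicate block called 4: Dazl was lower in double KD (adjusted p = 0.0133), and Dppa3 (0.33, adjusted p = 0.0462), Rhox5 (0.31, adjusted p = 0.0427) and the second Sycp3 probe (0.21, adjusted p = 0.0866) were higher.

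Against Hdac6 KD, the same 5 probes were called in double KD as in Tip60 KD, in 2 comparisons that share the Hdac6 KD arrays. Dazl (log2 difference 0.86, adjusted p = 0.0218), Ddx4 (0.53, adjusted p = 0.0612) and Stra8 (0.74, adjusted p = 0.0751) were higher in double KD, and the Sycp3 probes were lower (-0.73 and -0.71, adjusted p = 0.0542 and 0.0828). These 5 of 9 probes stand beside 10.2% of all tested probes called (5.22% higher and 4.93% lower). Hdac6 itself stood higher in double KD than under its own hairpin alone (153.4% and 152.8%, by its 2 probes), and the part of this difference in the results was not tested. No member probe was called without Hdac6 KD array A, Hdac6 KD array B, double KD array A or double KD array B, and 2 were called without either control KD array.

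Changes in double KD were smaller than the sum of those in the single knockdowns by value for all probes but that of Dazl. The interaction, the log2 change in double KD minus that sum, was called for 5 of 9 probes, all positive, while 23.3% of all tested probes were called and 11.2% were positive. For Stra8 the single changes summed to -3.67 and double KD gave -1.47, an interaction of 2.20 (SE 0.25, adjusted p = 0.00883). For Rhox5 the sum was -3.00 and double KD gave -1.29, an interaction of 1.71 (SE 0.21, adjusted p = 0.0102). Dppa3 (1.52, adjusted p = 0.0296), Mael (1.27, adjusted p = 0.00701) and Ddx4 (0.75, adjusted p = 0.0338) followed, whereas Dazl, with opposite single changes, summed to -0.08 and gave 0.18 (interaction 0.26, adjusted p = 0.395). Sycp3 missed the threshold by both probes (0.63 and 0.74, adjusted p = 0.109 and 0.104) and passed with the replicate block (adjusted p = 0.00813 and 0.00347), which also called Dazl (adjusted p = 0.0609) and brought the count to 8 of 9. All these contrasts use the same control arrays, and the weaker Hdac6 knockdown in double KD moves in the same comparison, and its part was not tested. The Ddx4 interaction was not called without control KD array A (adjusted p = 0.1005), and Sycp1 (adjusted p = 0.0783 without control KD array B) and Sycp3 (0.0867 for the second probe without Tip60 KD array A, 0.0918 for the first without double KD array B) were called only after such an omission or another setting.

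**Figure D3:**
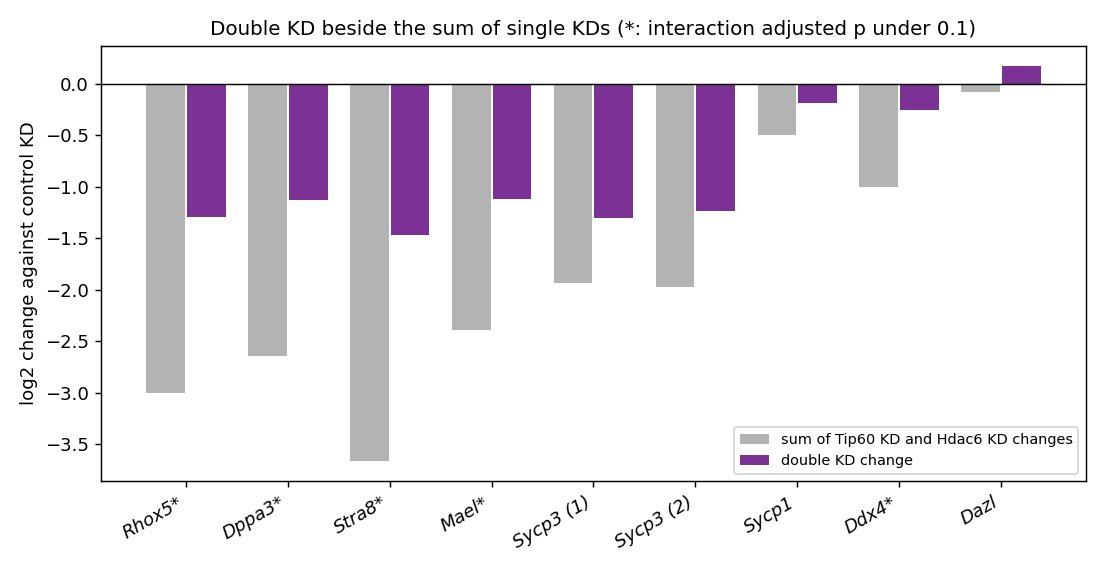
Log2 change against control KD (vertical axis) of each tested probe in double KD, beside the sum of its changes in Tip60 KD and Hdac6 KD. Asterisks mark an interaction with adjusted p under 0.1. The double KD bar is shorter than the bar of the sum for all probes but that of Dazl, where the sum is -0.08 and double KD gives 0.18.

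Other genes of meiosis were read in the same fit. Of 22 tested probes of 18 further meiosis genes, 8 fell and none rose in Tip60 KD, 8 fell and 2 rose in Hdac6 KD, and 7 fell and none rose in double KD, with median log2 changes of -0.20, -0.14 and -0.13. The shares lower were 36.4%, 36.4% and 31.8%, beside 19.8%, 15.1% and 17.0% of all tested probes. Dmc1, the meiotic recombinase, had log2 changes of -1.01, -0.05 and -0.64 in Tip60, Hdac6 and double KD (adjusted p = 0.00147, 0.769 and 0.00797) on its most responsive probe. Its brightest probe gave -0.57, -0.36 and -0.11 (adjusted p = 0.0159, 0.0873 and 0.584). A further probe, close to the floor, gave -0.29, -0.07 and -0.38 (adjusted p = 0.0934, 0.718 and 0.0515). The probes thus disagreed on Hdac6 KD, where only the brightest was called lower, and on double KD, where only the brightest was not called. Rec8, the meiotic cohesin, had changes of -0.87, -0.13 and -0.57 in the same order, and Syce2, a synaptonemal complex protein, of -0.76, -0.01 and -0.52. Like Sycp3, Rec8 and Syce2 were lower in Tip60 KD than in Hdac6 KD (log2 differences -0.75 and -0.74, adjusted p = 0.0134 and 0.00840), as Dmc1 was by its most responsive probe (-0.96, adjusted p = 0.00429). Smc1b, another meiotic cohesin, had changes of -0.03, -0.94 and -0.10 and was lower in Hdac6 KD than in Tip60 KD (log2 difference 0.91, adjusted p = 0.00368). Hormad1, a chromosome axis protein, had log2 changes of -1.06, -0.68 and -0.80, and Tex14, a protein of the bridges between germ cells, of -0.71, -0.27 and -0.56. The count lower in Hdac6 KD was 4, 2, 4 and 2 without control KD array A or B, or Hdac6 KD array A or B, and 5 without either double KD array. It was 3 without the filter on dim probes, with dim values missing, with the lower floor and with only the arrays compared, and 5 with normexp or series matrix values. The replicate block called 13 lower and 1 higher in Tip60 KD and 10 lower and 1 higher in double KD. The series matrix gave 4 lower in double KD. The count higher was 0 or 1 in Tip60 KD and double KD and 0 to 2 in Hdac6 KD over the omissions of an array.

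Of 12 tested probes of 10 further piRNA and nuage genes, 5 fell and none rose in each knockdown, with median log2 changes of -0.26, -0.35 and -0.29. The share lower was 41.7% in each, beside 19.8%, 15.1% and 17.0% of all tested probes. In Tip60 KD these 5 probes were of 4 genes. Tdrd12, a Tudor domain helicase, fell in all 3 as Mael did, with changes of -1.18, -0.98 and -1.18 in Tip60, Hdac6 and double KD (adjusted p = 0.00260, 0.00836 and 0.00417). Gtsf1, a cofactor of Piwi proteins, had changes of 0.31 in Tip60 KD and 0.36 in double KD, neither called, and fell by 0.87 in Hdac6 KD (adjusted p = 0.0145), where it was lower than in Tip60 KD (log2 difference 1.18, adjusted p = 0.00757). Piwil2 had log2 changes of -0.92, -0.31 and -0.76, not called in Hdac6 KD (adjusted p = 0.459), and Pld6 of -0.74, -0.90 and -0.60. Mov10l1 had changes of -0.25, -0.63 and -0.57, not called in Tip60 KD (adjusted p = 0.124). Tdrd5 had changes of -0.60, -0.39 and -0.32 on its most responsive probe. A dimmer Tdrd5 probe gave -0.42, -0.29 and -0.27, called only in Tip60 KD (adjusted p = 0.0334, 0.130 and 0.146). The double KD calls of Piwil2, Pld6 and the more responsive Tdrd5 probe were lost under 9, 10 and 8 other settings. The counts lower were 3 in Tip60 KD without control KD array A or Tip60 KD array B, and in double KD 2 without double KD array A or control KD array B and 3 without double KD array B. Without control KD array B or either Hdac6 KD array, 1 or 2 of these probes were called higher in Tip60 KD and 1 in double KD. Over the processing settings the count lower was as low as 3 in Tip60 KD and 2 in double KD, and the replicate block gave 8 in Hdac6 KD.

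Genes that mark primordial germ cells or act in them moved both ways. Of 12 tested probes of 9 genes, 6 rose and 3 fell in Tip60 KD, 4 rose and none fell in Hdac6 KD, and 3 rose and 3 fell in double KD. The shares higher were 50%, 33.3% and 25%, beside 20.8%, 14.9% and 16.8% of all tested probes, and the shares lower in Tip60 KD and double KD were 25% each, beside 19.8% and 17.0%. Tfap2c had log2 changes of -1.38, -0.35 and -1.08, Prdm1 of -0.80, 0.00 and -0.72 and Ifitm3 of -0.40, 0.07 and -0.46, whereas Prdm14 had log2 changes of 1.01, 0.48 and 0.88, Dppa2 of 1.10, 0.27 and 0.68 on its most responsive probe, and Nanos3 of 0.55, 0.52 and 0.40. The first 3 were called lower in Tip60 KD and double KD, and Prdm14 and Dppa2 were called higher in these groups. The brighter Dppa2 probe gave 0.92, 0.23 and 0.69 (adjusted p = 0.000979, 0.0815 and 0.00316). That probe, Prdm14 and Nanos3 (adjusted p = 0.0847) were also called higher in Hdac6 KD, and Nanos3 in Tip60 KD (adjusted p = 0.0559). Dppa4 had log2 changes of 0.44, 0.26 and 0.055 on 1 probe and of 0.28, 0.11 and -0.16 on a brighter one. Both were called higher in Tip60 KD, and the first also in Hdac6 KD (adjusted p = 0.0611). The 6 probes higher in Tip60 KD were of 4 genes, and with 1 probe per gene 4 rose and 3 fell of 9. In Hdac6 KD 0 probes were called higher without control KD array A or B or Hdac6 KD array A or B, and 2 without either Tip60 KD array. With dim values missing or the lower floor the count higher there was also 0, whereas the series matrix gave 1 higher and 2 lower, quantile normalisation 2 and 2, and the replicate block 5 and 2. The double KD call of the most responsive Dppa2 probe ended when array A of double KD, or array B of the control, was left out. The Prdm1 call ended without control KD array A in both, without Tip60 KD array B in Tip60 KD, and without either double KD array in double KD.

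Other genes of the Rhox cluster were read beside Rhox5. Of 7 tested probes of 6 further Rhox genes, 3 (42.9%) fell and none rose in each knockdown. Among all tested probes 19.8%, 15.1% and 17.0% were called lower, and 40.6%, 30.0% and 33.8% were called either way. The median log2 changes were -0.09, -0.57 and -0.48. With the replicate block 2, 1 and 1 were called higher in the same order. Rhox6 had log2 changes of -1.55, -0.57 and -1.19 and Rhox9 of -1.43, -0.65 and -1.16, all called, whereas Rhox13 had changes of -0.09, -0.79 and -0.48. The Rhox8 probes disagreed, with changes of -0.88 and 0.31 in Tip60 KD. The count lower in Hdac6 KD was 1 with series matrix values and without control KD array A or Hdac6 KD array B, and the Rhox6 call there ended without either control KD or Hdac6 KD array.

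A list of repressors held genes of DNA methylation and imprinting and the E2F6 and MGA assembly that reads such motifs. It was measured by 33 tested probes of 24 genes. Of these, 11 rose and 4 fell in Tip60 KD, 12 rose and 1 fell in Hdac6 KD, and 10 rose and 3 fell in double KD, with median changes of 0.05, 0.24 and 0.17. The shares higher were 33.3%, 36.4% and 30.3%, beside 20.8%, 14.9% and 16.8% of all tested probes, and the shares lower were 12.1%, 3.03% and 9.09%, beside 19.8%, 15.1% and 17.0%. The probes called higher were of 9, 8 and 7 genes, so some genes count more than once. With 1 probe per gene, 6, 4 and 6 of 24 were higher, beside 3552, 2525 and 2872 of all 18034, and 2, 1 and 2 were lower. With the replicate block, counts higher were 14, 21 and 15 after Tip60, Hdac6 and double knockdown, and counts lower were 10, 3 and 6. Zfp57, a zinc finger protein that guards imprinted methylation, had log2 changes of 1.99, 0.77 and 1.63 (adjusted p = 0.000547, 0.00893 and 0.00134). E2f6 had changes of -0.25, -0.12 and -0.30 and Mga of -0.11, -0.01 and -0.13, none of them called. L3mbtl2, also on the list, was called higher in Tip60 KD and double KD (0.57 and 0.56). The de novo methyltransferase Dnmt3b had log2 changes of 0.72, 1.07 and 0.61 on its most responsive probe. The brightest of its 3 probes gave -0.14, 0.58 and 0.22, and only its Hdac6 KD change was called (adjusted p = 0.328, 0.0105 and 0.148). Dnmt3a had log2 changes of -1.73, -0.16 and -0.98. Trim28 had log2 changes of 0.95, 0.31 and 0.63 and Atf7ip of 0.68, 0.57 and 0.83, both partners of the histone methyltransferase Setdb1, while the Cbx3 probes disagreed. The dimmer gave -0.85, 0.47 and -0.27, all called, and the brighter gave -0.67, -0.18 and -0.38 (adjusted p = 0.0263, 0.522 and 0.160). The count lower in double KD was 0 or 1 without either control KD, Hdac6 KD or double KD array, and the count in Hdac6 KD was 0 without either control KD or Hdac6 KD array. Across the 5 lists, 37 of 66 calls held under every setting, for the at most 6 genes per list with the largest changes, by their most responsive probe. Dppa4, E2f6, Mga and L3mbtl2 were not among those genes.

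**Figure D4:**
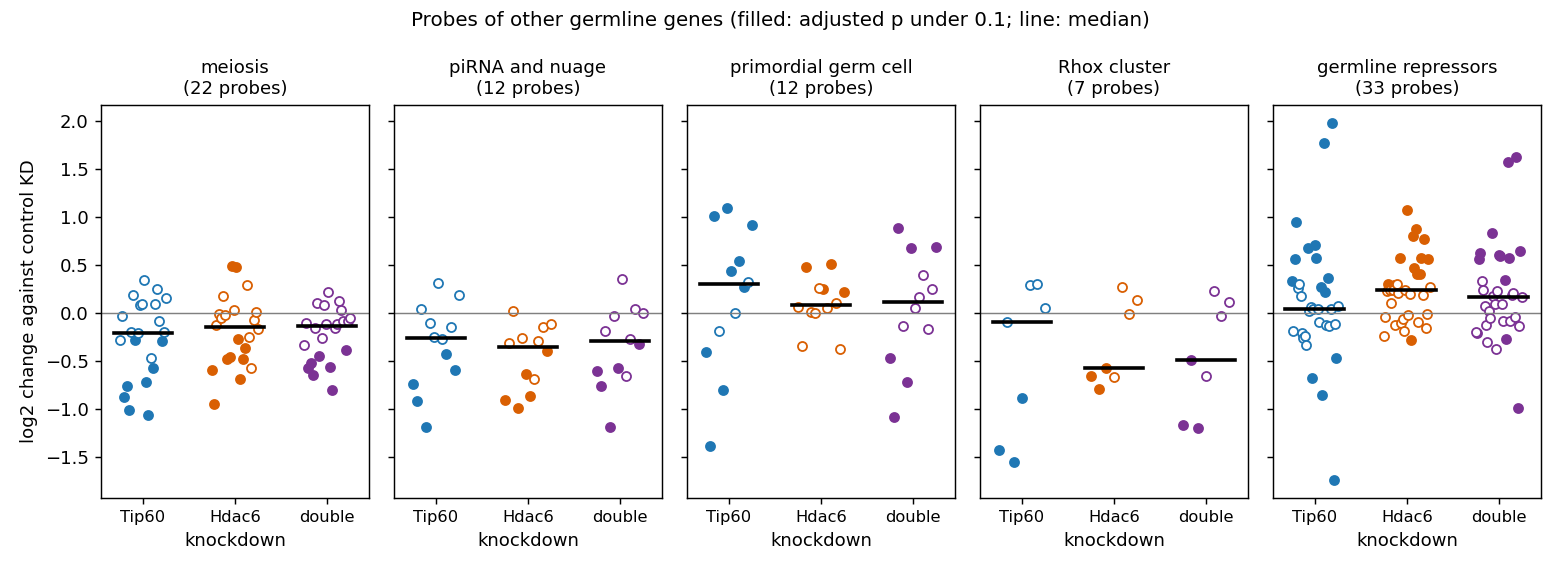
Log2 change against control KD (vertical axis) of the tested probes of 5 lists of germline genes other than the 10 members, by knockdown. Filled points have an adjusted p under 0.1 and lines mark medians, which lie below 0 for meiosis, piRNA and Rhox genes in all 3 knockdowns and at 0.05 to 0.24 for the repressors.

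Cell identity was read from marker lists beside these changes. Of 11 probes of pluripotency markers such as Nanog and Pou5f1, 10 were well above background on all arrays, and their summed signal was 303.3 to 334.9 times the 75th percentile across the 8 arrays, a sum led by Dppa5a. Of the 10 tested, 2, 3 and 3 were called higher in Tip60, Hdac6 and double KD, and 1 lower in double KD (Sox2, -0.35). The shares higher of 20%, 30% and 30% stand beside 20.8%, 14.9% and 16.8% of all tested probes. The 3 in Hdac6 KD were of 2 genes, Pou5f1 and Tdgf1, and a further Tdgf1 probe gave 0.04 there (adjusted p = 0.922). Pou5f1 rose by 1.01, 0.47 and 0.63 on the log2 scale (adjusted p = 0.00257, 0.0433 and 0.0163), and Zfp42 by 0.45 in Tip60 KD and 0.37 in double KD. Zfp42 was not called in Hdac6 KD (0.10, adjusted p = 0.558), and Nanog, Klf4, Esrrb and Dppa5a were called in no knockdown. Markers of the 2-cell-like state that a few ESCs enter moved with 2 of the groups. All 4 tested probes of Zscan4c and Zscan4f, near-identical genes whose probes may share transcripts, rose in Tip60 KD and double KD, and the summed signal of the list was 3.07 to 3.36 in control KD, 9.47 to 10.8 after Tip60 knockdown, 2.96 to 3.03 after Hdac6 knockdown and 8.25 to 8.89 after both. Fibroblast markers summed to 1.93 to 2.05, 2.62 to 3.07, 2.08 to 2.09 and 2.81 to 2.99, a sum led by Thy1, with 3 of 7 probes well above background on all arrays. Of 4 tested, 2 (Col1a1 and Thy1) were called higher in Tip60 KD and double KD, beside 20.8% and 16.8% of all tested probes. Col1a1 lay close to the floor of -2.71 in control KD (-2.24 and -2.60), so its rise began near the limit of measurement. Differentiation markers summed to 3.14 to 4.04 in all groups, with 4 of 15 probes well above background on all arrays. Of 7 tested, 1 of the 2 Eomes probes was higher in Tip60 KD (log2 change 0.84, adjusted p = 0.00883). Krt18 fell in every knockdown (-0.24, -0.32 and -0.19, adjusted p = 0.0386, 0.0228 and 0.0921). Its double KD call was fragile, since the list's count lower there was 0 with normexp, series matrix values and quantile normalisation. Gonadal soma markers summed to 6.22 to 8.19 in all groups, with 1 of 9 probes (Foxl2) well above background on all arrays. Gata1 was higher in Tip60 KD and double KD (log2 changes 0.75 and 0.67, adjusted p = 0.00418 and 0.00895). The part of these cell markers in the changes of the germ cell genes was not tested.

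Profiles most like those of the 3 members with the highest mean over all 8 arrays (Rhox5, Dazl and Sycp3) were sought over the 8 arrays by Pearson correlation on log2 signal, as a description that largely reflects group differences. That mean pools groups of different level and compares different probes, and in control KD alone the signal of Stra8 was above those of Dazl and Sycp3. Rhox5 was followed most closely by Klhl36 (r = 0.999), Txnip (0.996) and Ezh1 (0.995) among 22388 probes. Dazl was followed by Tle6 (0.993), Washc3 (0.991) and Sesn1 (0.990), and the second probe of Sycp3 by a probe named NAP043761-1 (0.998), Rhou (0.998) and Phf20 (0.995) among 22387 probes.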

How the data were processed

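Total RNA from the 8 cultures was labelled with Cy3 and hybridised to 1-colour Agilent mouse arrays. The submitters' processing notes name Agilent Feature Extraction 10.7.1.1. The deposited scanner values are intensity, of which the processed signal was used: per the file headers, the software had subtracted a background and had not scaled arrays to each other. The deposited series matrix holds log2 values made by the authors, whose normalisation is not given in the sources used here. They ranked probes as the median signal did (Spearman rho 0.9995 to 1.0, column medians 8.187 to 8.203), and they served as an alternative.

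Control and outlier spots were left out (119 to 380 outlier spots per array, 0 saturated) and spots of a probe were averaged. Signals were expressed relative to the 75th percentile of their array, with a floor at 0.153 of it (the highest over arrays of the lowest signal well above background), and taken to log2. Probes above floor and background on at least 2 arrays were tested (22594 of 39429), and 9.14% of their values lay at the floor. limma 3.58.1 in R 4.3.3 fitted all 4 groups together, with 2-sided tests and calls at adjusted p under 0.1 (Benjamini-Hochberg over all tested probes), with 4 residual and 1.90 prior degrees of freedom. The number of arrays limits the precision. Python 3.11.15 with pandas 2.3.3 and matplotlib 3.10.9 read the files and drew figures.

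The letters A and B paired the arrays, since each slide held 1 array of each group and the differences between replicates correlated between every pair of groups (r across probes 0.644 to 0.787). A fit with the replicate block was therefore an alternative. The others were normexp background correction with an offset of 50, 1 background for every array, the series matrix, quantile normalisation, no filter, dim values missing, a lower floor, 1 probe per gene, fits on the arrays compared only, and the omission of each array. On simulated data for Tip60 KD against control KD with 22389 probes, the fit recovered 66 of 100 changes of 1 and 91 of 100 changes of 2 on the log2 scale, with 20 false calls. Only 200 of the simulated probes were changed, whereas 40.6% of tested probes were called in the data. These figures therefore do not give the recovery or false calls of the real comparison.

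The members, lists, tests and alternatives were chosen with earlier results of these data known. Named beside the members are the targets, at most 6 genes per list with adjusted p under 0.1 and the largest changes, and the 3 profiles most like each of the 3 members of highest mean signal. Dppa4, E2f6, Mga, L3mbtl2 and the genes of the cell marker lists are named outside that rule. Upstream sequences and gene starts come from RefSeq (GRCm38.p6), and probe positions from the files (mm9). No position was converted between builds.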

Additional observations from a re-analysis of the deposited data

Results flagged for a closer look

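For 5 genes the effect of Hdac6 knockdown differed with and without Tip60 knockdown, by the test of the interaction itself. The interaction on the log2 scale was 2.20 for Stra8, 1.71 for Rhox5, 1.52 for Dppa3, 1.27 for Mael and 0.75 for Ddx4. In control hairpin cells Hdac6 knockdown lowered all 5, and in cells that also received the Tip60 hairpin the log2 difference it made was 0.00 for Stra8, 0.31 for Rhox5, 0.33 for Dppa3, 0.00 for Mael and -0.03 for Ddx4, none of them called without the replicate block. With the block, which pairs arrays of 1 slide, Dppa3 (adjusted p = 0.0462) and Rhox5 (0.0427) were called higher after both knockdowns than after that of Tip60 alone. The Hdac6 transcript was less reduced in double KD than in Hdac6 KD, and its part in the differences was not tested.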

How the results depend on the processing

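No call of a germ cell gene probe changed direction under any alternative. Over 9 tested probes and all comparisons, 1000 of the alternative values were on the same side of the threshold (the sign could differ where neither value was called), 92 lost a call and 26 gained one. The numbers of called members in Tip60, Hdac6 and double KD against control KD stayed within 1.5 times their values under every alternative. Between double KD and Tip60 KD, where 0 were called, quantile normalisation called 1 and the replicate block called 4, and the omission of any array left 0. Between double KD and Hdac6 KD, where 5 were called, 1 was called without the filter on dim probes, 0 with dim values missing, 1 with the lower floor and 0 with only the arrays compared, and 0 to 4 with an array omitted. Between Tip60 KD and Hdac6 KD, where 5 were called, the omission of an array left 2 to 5. The replicate block called 8 interactions in place of 5, and the omission of an array left 4 to 6. Beyond the calls given in the report, the replicate block changed no other call of a member. The cause of these shifts was not tested, other than that fits without an array or on fewer arrays have fewer degrees of freedom. The Dppa3 interaction was not called without the filter (adjusted p = 0.102). With 2 arrays per group, an omitted array leaves 1, which is assumed to vary like the other groups. Tdrd1 and Tex101 were limited by signal over background, and Sycp1 nearly so.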
